A study of Mus musculus with 30 samples.

Results

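The Nodal and activin pathway was followed through 9 genes, Nodal, Gdf3, Inhbb, Inhba, Lefty1, Lefty2, Cer1, Fst and Smad7, out of 55421 genes in the deposited count table. They were chosen by symbol, and each matched exactly 1 row. The list was drawn up with earlier results of these data known, and Inhbb in particular had been singled out by its lower level after treatment, so its treatment changes are described here without a test. Polyadenylated RNA was sequenced from E14 mouse embryonic stem cells, an XY line of 129P2/Ola background, kept in serum medium with leukemia inhibitory factor, the MEK inhibitor PD0325901 and the GSK3 inhibitor CHIR-99021.

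There were 5 lines, each a named cell line of its own, and each gave 3 libraries from untreated cells and 3 from cells treated for 24 h. All of them carried Tir1, the plant F-box protein that lets auxin (IAA, indole-3-acetic acid) trigger the destruction of proteins fused to an auxin-inducible degron (AID). The TIR1 line (EN148.10) carried Tir1 alone and received auxin. The PDS5AB line (EN293.1) carried PDS5A-AID and PDS5B-AID, and the WAPL line (CMW184) carried WAPL-AID. Both received auxin at 500 µM. The PDS5AB-NIPBL line (EN331.2) carried PDS5A-AID, PDS5B-AID, NIPBL-FKBP and RAD21-Halo, and the WAPL-NIPBL line (EN382.1) carried WAPL-AID, NIPBL-FKBP and RAD21-Halo. These combined lines received auxin together with dTAG-13 at 500 nM, which destroys the FKBP fusion. No group received dTAG-13 without an FKBP fusion. An effect of dTAG-13 itself therefore cannot be told apart from one of NIPBL loss. RAD21-Halo also sets the combined lines apart from the other lines. PDS5A, PDS5B, WAPL and NIPBL regulate cohesin, the ring complex that extrudes loops of chromatin. With 1 line per genotype, a difference between lines cannot be told apart from a difference between clones, and nothing in the labels says whether the 3 libraries of a group came from separate cultures, so p-values measure the spread between these libraries only.

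Nodal, Gdf3 and the activins are secreted ligands of the TGF-β superfamily. They bring type I and type II receptor kinases together, and the receptors phosphorylate Smad2 and Smad3, which enter the nucleus with Smad4 and act through partners such as Foxh1. Several target genes encode inhibitors of the same pathway, among them Lefty1, Lefty2 and Smad7, so the pathway feeds back on itself. In the early embryo it patterns the epiblast and induces mesoderm and endoderm, and embryonic stem cells make both ligands and inhibitors.

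Lefty1 and Lefty2 are neighbouring near-copies, which matters for every Lefty value below. On GRCm38 chromosome 1 plus strand, Lefty2 lies at 180893108 to 180899103 and Lefty1 at 180935022 to 180938400, 35918 bases apart. Their coding sequences, each 1104 bases without the stop codon, were 91.8% identical with no gap, and the longest identical stretch was 140 bases. Of all 50-base words in the Lefty1 transcript, 17.9% also occurred in Lefty2, and 4.80% of its 100-base words did. For Lefty2 the shares were 11.6% and 3.07%. A fragment that lies wholly inside a shared stretch maps to both genes and was not counted for either. The 90 coding bases in which they differ most, coding positions 35 to 124 counted from the A of the start codon, show what tells their fragments apart. These bases lie in an exon at chr1:180935144-180935233 (Lefty1) and chr1:180893218-180893307 (Lefty2), and capitals mark the 27 positions that differ.
Lefty1: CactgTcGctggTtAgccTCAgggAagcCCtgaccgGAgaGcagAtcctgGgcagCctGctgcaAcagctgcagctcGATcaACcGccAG
Lefty2: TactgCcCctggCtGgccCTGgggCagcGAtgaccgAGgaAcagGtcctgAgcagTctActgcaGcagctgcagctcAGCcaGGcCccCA

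Upstream sequence was held for 4 of the 9 genes in the RefSeq promoter table (build GRCm38.p6), and the 250 bases before the start of Inhbb and of Nodal are shown because these ligand genes differed in their treatment changes and also differ in base composition. Capitals mark CG dinucleotides. The Inhbb sequence (chr1:119422249-119422498, minus strand) held 21 of them, a count that 85.2% of 32851 promoter sequences of the same length did not exceed. The Nodal sequence (chr10:61417722-61417971, plus strand) held 3, against a median of 6. The Smad-binding element CAGAC was searched on both strands and occurred in 42.2% of all promoter sequences, and the Foxh1 motif AATNCACA, also searched on both strands, in 3.18%. The letters of these motifs can overlap by a CA. Neither motif was present in the Inhbb, Nodal or Inhba sequence, and Cer1 held 1 CAGAC.
Inhbb: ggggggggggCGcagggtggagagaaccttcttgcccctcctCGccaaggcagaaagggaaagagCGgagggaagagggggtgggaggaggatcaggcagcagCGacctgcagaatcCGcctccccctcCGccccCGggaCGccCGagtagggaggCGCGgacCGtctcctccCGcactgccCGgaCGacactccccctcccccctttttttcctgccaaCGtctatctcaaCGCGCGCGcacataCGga
Nodal: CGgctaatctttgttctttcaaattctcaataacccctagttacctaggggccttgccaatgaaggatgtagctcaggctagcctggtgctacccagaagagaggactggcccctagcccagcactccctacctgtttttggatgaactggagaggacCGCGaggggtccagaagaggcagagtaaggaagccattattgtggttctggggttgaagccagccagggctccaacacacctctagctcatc

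Library totals ran from 19632704 to 45539021 counted fragments, and replicates of a group correlated at r of at least 0.987 (across genes, on log2 CPM, the fragment count scaled to library size). Degrons act on protein, which was not analysed here, and transcripts of the tagged genes were present in every group: means of Pds5a, Pds5b, Wapl, Nipbl and Rad21 ran from 60.4 CPM (Pds5a, treated PDS5AB) to 458 CPM (Rad21, untreated WAPL). The 8 markers of pluripotent cells summed to 5875 to 6604 CPM in untreated libraries. Library names carry numbers in separate runs: untreated TIR1 and all PDS5AB libraries lie between 1 and 21, those of WAPL, PDS5AB-NIPBL and WAPL-NIPBL cells between 25 and 42, and auxin-treated TIR1 libraries between 43 and 45. The TIR1 treatment change, every difference from it, and comparisons of untreated WAPL, PDS5AB-NIPBL or WAPL-NIPBL cells with untreated TIR1 or PDS5AB cells therefore run across these runs, where library run and group cannot be told apart, and no value within a run exists for them.

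Per length of transcript (FPKM, the CPM divided by exon length in kilobases), the ligands Gdf3 and Nodal stood highest in untreated TIR1 cells, at 58.6 ± 5.27 and 46.7 ± 2.43 (SD, n = 3). Lefty2 followed at 34.4 ± 4.06 and the inhibitory Smad7 at 25.9 ± 1.18 FPKM. Lefty1 at 8.27 ± 1.17 and Inhbb at 6.67 ± 0.848 FPKM did not differ beyond their ranges, and Fst was lowest of the expressed genes at 1.55 ± 0.170. By mean, Gdf3 was the highest of the 9 in all groups but treated PDS5AB, where Nodal stood at 66.9 ± 3.75 and Gdf3 at 42.8 ± 0.866 FPKM with no overlap. In both WAPL-NIPBL groups the range of Gdf3 overlapped that of Lefty2, whose replicate 2 stood above Gdf3 (56.7 against 53.5 FPKM untreated and 67.7 against 59.6 FPKM treated). In treated WAPL cells Lefty2 (29.6 ± 11), Lefty1 (28.7 ± 7.92) and Smad7 (27.5 ± 0.870 FPKM) could not be ordered, since their ranges overlapped. By mean, Fst and Inhbb were the lowest of the 7 expressed genes in all 10 groups, although Inhbb and Lefty1 overlapped in both TIR1 groups.

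**Figure D1:**
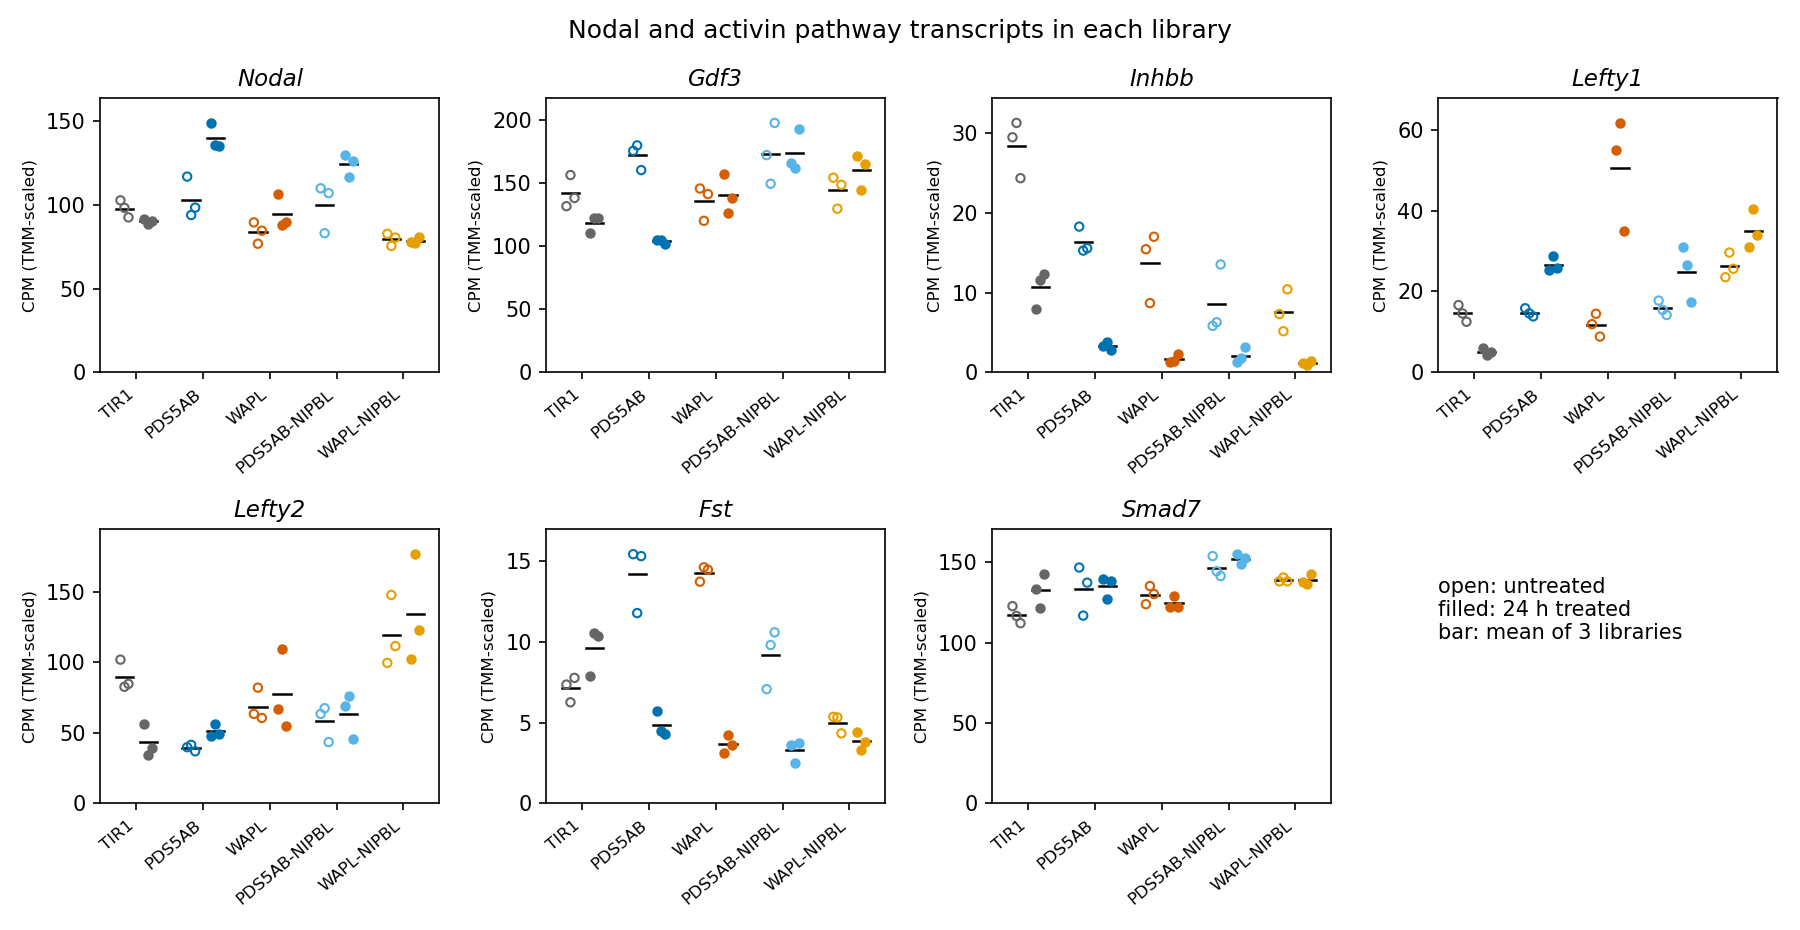
Level of each expressed pathway gene in each of the 30 libraries, in CPM scaled by TMM on a linear axis from 0, for the 5 lines. Open circles are untreated and filled circles treated libraries, and bars are means of 3. Inhbb is lower in every treated group, Lefty1 has its highest mean in treated WAPL cells (34.9 to 61.7 CPM, overlapping the 30.9 to 40.4 CPM of treated WAPL-NIPBL cells), and Smad7 stays between 112 and 155 CPM throughout.

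Nodal (ENSMUSG00000037171, chromosome 10, 61417972 to 61425338, plus strand), the ligand that names the pathway, was called higher after treatment in the PDS5AB and PDS5AB-NIPBL lines. Its levels in untreated PDS5AB cells were 117, 94.0 and 98.5 CPM, and 149, 136 and 135 CPM after treatment, with no overlap (edgeR log2 0.44, SE 0.0891, adjusted p = 0.000153). In PDS5AB-NIPBL cells it rose from 110, 83.1 and 107 to 130, 117 and 126 CPM, again without overlap (edgeR log2 0.31, SE 0.0896, adjusted p = 0.0120). The latter call was lost without treated replicate 1 (edgeR adjusted p = 0.0595) or untreated replicate 2 (0.137). The range over the alternatives was 2.45e-05, with the replicate block, to 0.137. The difference between both changes was -0.13 (95% interval -0.39 to 0.14, edgeR adjusted p = 0.591).

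In WAPL cells Nodal stood at 89.6, 76.8 and 84.6 CPM untreated and at 107, 87.8 and 89.9 CPM treated, where the groups overlapped. The log2 change of 0.18 was not called (SE 0.0898, edgeR adjusted p = 0.131), but was called with the replicate block (adjusted p = 0.00847, the lowest of a range to 0.476). WAPL-NIPBL cells held 82.8, 75.5 and 80.5 CPM untreated and 78.1, 77.3 and 80.8 CPM treated (log2 -0.02, 95% interval -0.20 to 0.17, edgeR adjusted p = 0.956). In TIR1 cells the levels were 103, 98.3 and 92.6 CPM without and 91.5, 88.8 and 90.2 CPM with auxin. These groups did not overlap, but the log2 change of -0.12 was not called (SE 0.0895, edgeR adjusted p = 0.384).

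Gdf3 (ENSMUSG00000030117, chromosome 6, 122605403 to 122610087, minus strand), a ligand that signals through the same receptors as Nodal, fell in PDS5AB cells. It stood at 176, 180 and 160 CPM untreated and at 105, 105 and 101 CPM treated, well apart (edgeR log2 -0.73, SE 0.0980, adjusted p = 4.57e-07). In the PDS5AB-NIPBL line, which carries the same AID fusions and NIPBL-FKBP, the levels were 172, 149 and 198 CPM untreated and 166, 162 and 193 CPM treated. That change was 0.01 (95% interval -0.20 to 0.21), and it differed from the change in PDS5AB cells by log2 0.73 (SE 0.138, edgeR adjusted p = 0.000791).

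In WAPL cells Gdf3 changed by log2 0.05 (95% interval -0.15 to 0.25) and in WAPL-NIPBL cells by 0.16 (-0.05 to 0.36), neither of them called (edgeR adjusted p = 0.740 and 0.396). In TIR1 cells it stood at 132, 156 and 138 CPM without auxin and at 110, 122 and 122 CPM with auxin, without overlap. Its log2 change there, -0.26 (SE 0.0976), just missed the threshold (edgeR adjusted p = 0.0544) and passed it with all genes kept (0.0238) and in a fit of only the 2 groups (0.00709), the range being 0.00709 to 0.266.

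Inhbb (ENSMUSG00000037035, chromosome 1, 119415465 to 119422248, minus strand) encodes the βB subunit of activins and inhibins, and was lower after treatment in all 5 lines. In TIR1 cells its levels were 29.5, 31.3 and 24.4 CPM without and 7.96, 11.6 and 12.4 CPM with auxin (log2 -1.41, SE 0.261). In PDS5AB cells they were 18.3, 15.3 and 15.6 CPM untreated and 3.28, 3.76 and 2.78 CPM treated (log2 -2.32, SE 0.296). In WAPL cells they were 15.4, 8.68 and 17 CPM untreated and 1.34, 1.38 and 2.27 CPM treated (log2 -3.03, SE 0.323). Treated and untreated libraries did not overlap in any of these lines, and the auxin-only control is among them.

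PDS5AB-NIPBL cells held 5.81, 6.27 and 13.5 CPM of Inhbb untreated and 1.23, 1.77 and 3.15 CPM treated (log2 -2.03, SE 0.333). WAPL-NIPBL cells held 7.30, 5.15 and 10.4 CPM untreated and 1.21, 0.888 and 1.36 CPM treated (log2 -2.72, SE 0.356). Untreated replicate 3 of the PDS5AB-NIPBL line stood above the other 2. Treated WAPL-NIPBL cells had the lowest mean of the 10 groups, 1.15 ± 0.243 CPM (SD, n = 3), from 28 to 47 fragments per library. Inhba, which encodes the βA subunit, was at 0 in 26 of the 30 libraries and never above 2 fragments, so activin A transcript was near or under what 3 fragments allow (0.0678 to 0.152 CPM, depending on the library; these limits cover counting error only).

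**Figure D2:**
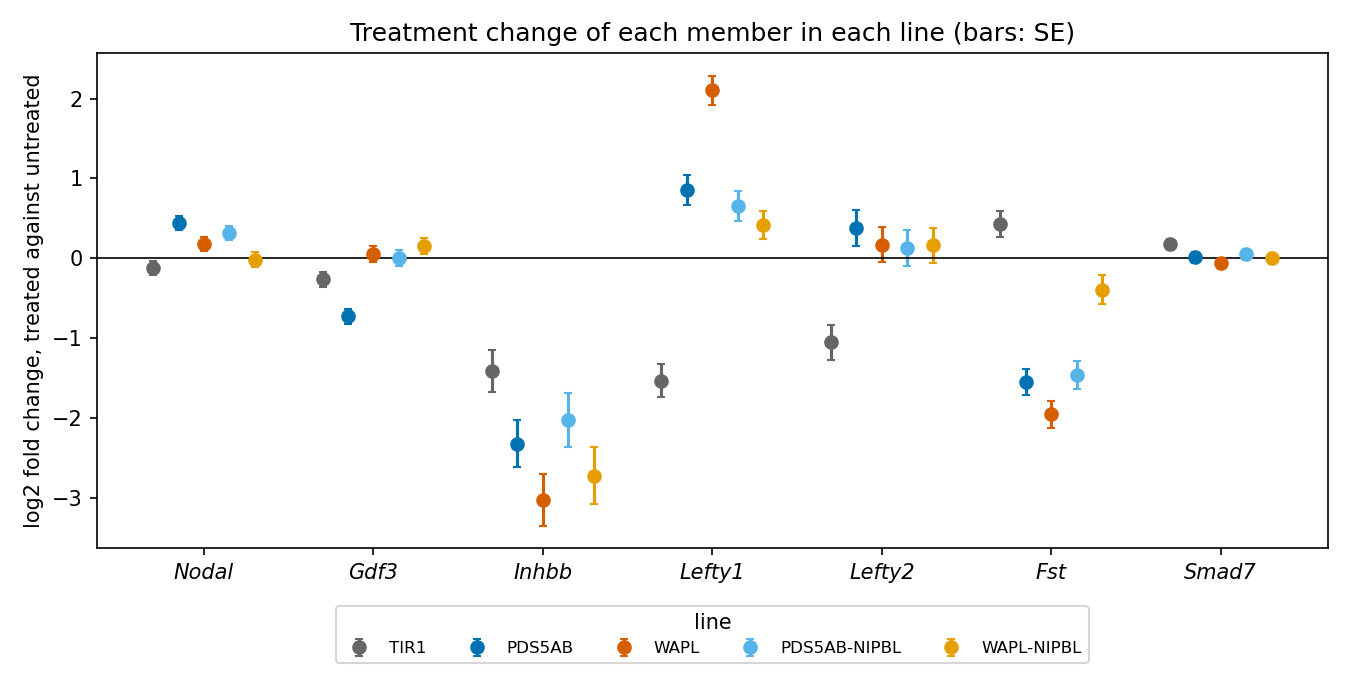
Log2 change on treatment (treated minus untreated) of the 7 expressed genes in the 5 lines, as points with the standard error of the fit. The 5 Inhbb points lie below 0, the Lefty1 point of TIR1 cells lies at -1.53 and that of WAPL cells at 2.10, and the Smad7 points lie between -0.06 and 0.18.

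The secreted antagonist Lefty1 (ENSMUSG00000038793) fell with auxin alone and rose in 3 of the 4 degron lines. In TIR1 cells it stood at 16.6, 14.5 and 12.5 CPM without and 5.87, 4.37 and 4.94 CPM with auxin (edgeR log2 -1.53, SE 0.204, adjusted p = 3.33e-06). In WAPL cells it stood at 11.9, 14.5 and 8.82 CPM untreated and 54.9, 61.7 and 34.9 CPM treated, a 4.29-fold rise (edgeR log2 2.10, SE 0.188, adjusted p = 4.75e-10). In PDS5AB cells it rose from 15.8, 14.6 and 13.8 to 25.2, 28.9 and 25.9 CPM (edgeR log2 0.86, SE 0.184, adjusted p = 0.000305). Groups did not overlap in any of these 3 lines.

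In PDS5AB-NIPBL cells Lefty1 levels were 17.7, 15.4 and 14.2 CPM untreated and 30.9, 26.4 and 17.3 CPM treated, where treated replicate 3 lay inside the untreated range. The rise of log2 0.65 was called (SE 0.187, edgeR adjusted p = 0.0124), and also with the replicate block (0.000368). It was not called without treated replicate 1 (0.121) or untreated replicate 3 (0.0656), over a range of 1.41e-07 to 0.121. In WAPL-NIPBL cells the levels were 23.5, 29.6 and 25.6 CPM untreated and 30.9, 40.4 and 33.9 CPM treated. That change of 0.42 was not called (SE 0.178, edgeR adjusted p = 0.161), but was with the replicate block (0.0133), with all genes kept (0.00246) and in a fit of only the 2 groups (0.0340), with 0.435 as the highest value of any alternative. It was smaller than the change in WAPL cells (difference in log2 -1.69, SE 0.257, edgeR adjusted p = 9.37e-05). However, the untreated means differed as well (26.2 CPM in WAPL-NIPBL and 11.7 CPM in WAPL cells). Treated ranges of these lines overlapped (30.9 to 40.4 and 34.9 to 61.7 CPM).

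Lefty2 (ENSMUSG00000066652), the other Lefty gene, fell with auxin in TIR1 cells, from 102, 82.7 and 84.8 to 56.7, 34.3 and 39.3 CPM (edgeR log2 -1.05, SE 0.222, adjusted p = 0.00107). In PDS5AB cells it stood at 39.9, 41.6 and 37.0 CPM untreated and 48.0, 56.6 and 49.5 CPM treated. These did not overlap, yet the log2 change of 0.38 was not called (SE 0.224, edgeR adjusted p = 0.168). It was called with the replicate block (0.0201), with all genes kept (0.000221) and in a fit of only the 2 groups (0.00792), with 0.347 as the highest value of any alternative. In WAPL cells the levels were 63.5, 82.1 and 60.6 CPM untreated and 67.2, 110 and 55.1 CPM treated, where replicate 2 stood high in both groups (log2 0.17, 95% interval -0.29 to 0.63, edgeR adjusted p = 0.605). Untreated WAPL-NIPBL libraries held 99.7, 147.9 and 112 CPM and treated ones 102, 177 and 123 CPM, again with replicate 2 highest in both groups. The changes in PDS5AB-NIPBL and WAPL-NIPBL cells were 0.13 (95% interval -0.34 to 0.60) and 0.16 (-0.29 to 0.61), and neither was called (edgeR adjusted p = 0.764 and 0.745).

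The ratio of Lefty1 to Lefty2, both per length, compares the antagonists within each library and needs no scaling between libraries. It was 0.278, 0.262 and 0.216 in untreated WAPL libraries and 1.22, 0.835 and 0.942 in treated ones. In PDS5AB cells it was 0.589, 0.520 and 0.554 untreated and 0.779, 0.758 and 0.776 treated. In TIR1 cells it was 0.242, 0.261 and 0.219 without and 0.154, 0.189 and 0.187 with auxin, lower in every auxin library. PDS5AB-NIPBL libraries ran from 0.339 to 0.483 untreated and from 0.516 to 0.663 treated, and WAPL-NIPBL libraries from 0.297 to 0.350 and from 0.339 to 0.449, which overlapped.

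**Figure D3:**
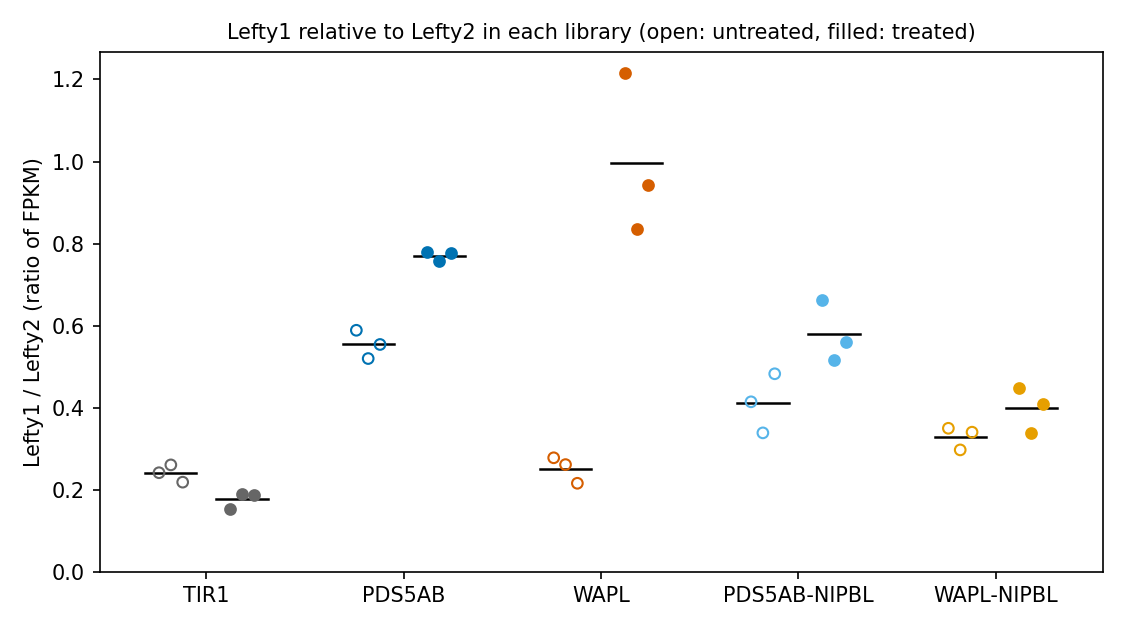
Ratio of Lefty1 to Lefty2 (both in FPKM, linear axis from 0) in each library of the 5 lines, open for untreated and filled for treated, with bars at the mean of 3. The treated WAPL libraries, at 0.835 to 1.22, lie above all others, and only in WAPL-NIPBL cells do treated and untreated libraries overlap.

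Follistatin, encoded by Fst (ENSMUSG00000021765, chromosome 13, 114452290 to 114458951, minus strand), binds activins and keeps them from their receptors. It fell in 3 of the 4 degron lines. In WAPL cells it went from 13.7, 14.6 and 14.5 to 3.11, 4.25 and 3.60 CPM (edgeR log2 -1.96, SE 0.166, adjusted p = 1.84e-10). In PDS5AB cells it went from 15.4, 11.8 and 15.3 to 5.71, 4.51 and 4.31 CPM (edgeR log2 -1.55, SE 0.162, adjusted p = 5.07e-09). In PDS5AB-NIPBL cells it went from 7.07, 9.79 and 10.6 to 3.64, 2.53 and 3.73 CPM (edgeR log2 -1.46, SE 0.177, adjusted p = 4.05e-07). No treated library of these lines reached an untreated one.

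WAPL-NIPBL cells had 5.35, 5.32 and 4.33 CPM of Fst untreated and 4.41, 3.28 and 3.80 CPM treated, overlapping groups whose log2 change of -0.39 was not called (SE 0.178, edgeR adjusted p = 0.194). It differed from the change in WAPL cells by log2 1.56 (SE 0.243, edgeR adjusted p = 0.000115), but the untreated levels differed as well, and the treated means were close (3.65 CPM in WAPL and 3.83 CPM in WAPL-NIPBL cells). In TIR1 cells Fst stood at 7.35, 6.25 and 7.76 CPM without and 7.87, 10.5 and 10.4 CPM with auxin (edgeR log2 0.43, SE 0.158, adjusted p = 0.0539). That change was called in 4 of 10 alternatives, among them DESeq2 (adjusted p = 0.0480) and the fit without auxin-treated replicate 1 (0.0244), over a range of 0.0239 to 0.210. An exon of Fst overlaps Gm47040 on the opposite strand, which had at most 3 fragments in any library. Counting used no strand option, so fragments in the shared stretch count for neither gene. The low count of Gm47040 therefore does not show how many fragments Fst lost.

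Cer1, a secreted antagonist that binds Nodal, had 1 to 3 fragments in each PDS5AB library and at most 2 in any other, too few to pass the filter on low counts. Smad7 (ENSMUSG00000025880, chromosome 18, 75367529 to 75395935, plus strand), the inhibitory Smad that blocks the activated receptors from inside the cell, was not called in any line. Its group means ran from 117 CPM in untreated TIR1 to 152 CPM in treated PDS5AB-NIPBL cells. The largest change was that in TIR1 cells, from 123, 117 and 112 to 133, 121 and 143 CPM (log2 0.18, 95% interval 0.03 to 0.32, edgeR adjusted p = 0.0668), which passed with DESeq2 (0.0486) and without untreated replicate 1 (0.0337) or treated replicate 2 (0.0239), over a range of 0.0239 to 0.269. In the degron lines the 95% intervals of its log2 change lay between -0.20 and 0.20.

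Of the 9 genes, 7 passed the filter on low counts, and Inhbb, chosen by its treatment changes, is left out of the counts that follow, which are over the other 6. With auxin in TIR1 cells 2 were called lower (Lefty1 and Lefty2) and 0 higher by edgeR, where 19.9% of all tested genes were called (10.4% higher and 9.59% lower). At an unadjusted p under 0.05, 3 were lower and 2 higher there, and DESeq2 called 2 each way. In PDS5AB cells 2 were higher (Nodal and Lefty1) and 2 lower (Gdf3 and Fst), against 46% of all tested genes (25.8% and 20.2%). In WAPL cells 1 was higher (Lefty1) and 1 lower (Fst), against 32.8% (17% and 15.8%). In PDS5AB-NIPBL cells 2 were higher (Nodal and Lefty1) and 1 lower (Fst), against 19.5% (11.4% and 8.06%), and without treated replicate 1 the total of 3 became 1. In WAPL-NIPBL cells 0 were called by edgeR or DESeq2, against 8.57% (5.11% and 3.45%), with 1 higher and 1 lower at an unadjusted p under 0.05, and 1 with the replicate block (Lefty1), under which 19.7% of all tested genes were called.

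Treated and untreated libraries did not overlap for 5 of these 6 genes in TIR1 cells (39.2% of all tested genes) and 5 in PDS5AB cells (52.8%). The WAPL line had 2 such genes (40.2%), the PDS5AB-NIPBL line 2 (33.4%) and the WAPL-NIPBL line 1 (27%). Over the 6 genes the median log2 change was -0.19 for TIR1 and 0.20 for PDS5AB cells, and lay between 0.08 and 0.11 for the other 3 lines. Over all tested genes it lay between -0.01 and 0.04.

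The auxin-only TIR1 line and the degron lines were also compared directly, as differences of their treatment changes. These share the TIR1 libraries, which were numbered apart. The combined lines also received dTAG-13, which TIR1 cells did not. Again without Inhbb, 5 of the 6 genes differed from TIR1 in PDS5AB cells, 3 upward and 2 downward, where 26.3% of all tested genes did (13.9% and 12.4%). In WAPL cells 3 did, Lefty1 and Lefty2 upward and Fst downward, against 20.7% (9.86% and 10.9%). In PDS5AB-NIPBL cells 4 did, 3 upward and 1 downward, against 10.1% (5.28% and 4.81%), and in WAPL-NIPBL cells 3, 2 upward and 1 downward, against 7.04% (3.1% and 3.94%). Without auxin-treated TIR1 replicate 2 the count was 2 for PDS5AB-NIPBL and 1 for WAPL-NIPBL cells. The Lefty1 change lay above that of TIR1 by log2 3.63 in WAPL (SE 0.277), 2.39 in PDS5AB (SE 0.275), 2.18 in PDS5AB-NIPBL (SE 0.277) and 1.95 in WAPL-NIPBL cells (SE 0.271), with the largest edgeR adjusted p at 2.24e-05. In PDS5AB-NIPBL against PDS5AB cells the 1 gene called was Gdf3, upward (9.46% of all tested genes were called, 4.97% upward and 4.48% downward), and in WAPL-NIPBL against WAPL cells 2 were called, Fst upward and Lefty1 downward (5.19%, with 3.03% and 2.16%).

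Before any treatment the lines already differed. The untreated libraries are among those by whose change Inhbb was chosen, so its untreated levels are described without a test and it is left out of the counts. In PDS5AB cells, whose untreated libraries share a run of numbers with untreated TIR1, 3 of the 6 tested genes other than Inhbb were higher than in TIR1 and 1 lower, against 32% of all tested genes called (15.5% and 16.5%). Fst was 1.98-fold higher (14.2 against 7.12 CPM; edgeR log2 0.99, SE 0.158, adjusted p = 9.63e-06). Lefty2 was lower, at 39.5 against 89.8 CPM (edgeR log2 -1.19, SE 0.224, adjusted p = 0.000102), while Lefty1 stood at 14.7 and 14.5 CPM (log2 0.02, 95% interval -0.38 to 0.41). Inhbb stood at 16.4 and 28.4 CPM, with no overlap. Cell type markers differed between these untreated lines as well. In PDS5AB cells 5 of 7 primitive endoderm markers were called higher and 0 lower. Of 8 pluripotency markers 2 were higher and 4 lower. The part of these markers in the differences of the pathway genes was not tested.

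The baseline calls of Smad7 (log2 0.19, edgeR adjusted p = 0.0336) and Gdf3 (log2 0.28, edgeR adjusted p = 0.0295) in PDS5AB cells lay near the threshold. Each was lost when any 1 of several libraries was left out. Smad7 was lost without untreated PDS5AB replicate 1 or 3 (0.241 and 0.111), without untreated TIR1 replicate 2 or 3 (0.0857 and 0.143) and in a fit of only the 2 groups (0.124), over a range of 0.00235 to 0.241. Gdf3 was lost without untreated PDS5AB replicate 1 or 2 (0.0739 and 0.109) or untreated TIR1 replicate 1 or 3 (0.137 and 0.0932), over a range of 0.000189 to 0.137. The count of 4 was 2 without untreated PDS5AB replicate 1 or untreated TIR1 replicate 3.

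The WAPL and WAPL-NIPBL lines share a run of library numbers, and 3 of the 6 genes differed between them untreated (2 higher and 1 lower in WAPL-NIPBL), against 10.7% of all tested genes (4.99% and 5.67%). Lefty1 was higher in untreated WAPL-NIPBL cells, 26.2 against 11.7 CPM (edgeR log2 1.16, SE 0.189, adjusted p = 6.33e-05), and Fst lower, 5.00 against 14.3 CPM (edgeR log2 -1.51, SE 0.164, adjusted p = 8.43e-08). Lefty2 was higher, 120 against 68.8 CPM (edgeR log2 0.80, SE 0.220, adjusted p = 0.0145), a call lost without untreated WAPL replicate 1 (0.0711) or 3 (0.0784) or untreated WAPL-NIPBL replicate 2 (0.125), over a range of 3.83e-19 to 0.125. Inhbb stood at 7.62 and 13.7 CPM, with overlapping groups.

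Other untreated lines were compared with TIR1 or PDS5AB across runs of library numbers. Against untreated TIR1, WAPL cells had 1 gene called (14% of all tested genes, 6.62% higher and 7.39% lower), Fst, which was higher (log2 1.00, edgeR adjusted p = 5.24e-05). Inhbb stood at 13.7 CPM there, 8.54 CPM in PDS5AB-NIPBL and 7.62 CPM in WAPL-NIPBL cells, against 28.4 CPM in TIR1 cells.

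Untreated PDS5AB-NIPBL cells had 3 genes called against TIR1 (34.3% of all tested genes, 16.5% higher and 17.8% lower): Smad7 higher by log2 0.32 (edgeR adjusted p = 0.000494), Gdf3 higher by 0.29 (0.0231) and Lefty2 at -0.63 (0.0275). Without untreated TIR1 replicate 1 or PDS5AB-NIPBL replicate 3 the count was 1. Gdf3 was lost without either of these (0.0813 and 0.174) or TIR1 replicate 3 (0.0711), over a range of 0.000156 to 0.174. Lefty2 was lost without the same TIR1 replicate 1 or PDS5AB-NIPBL replicate 3 (0.118 and 0.167) and with DESeq2 (0.0539), over a range of 2.4e-11 to 0.167.

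Untreated WAPL-NIPBL cells had 4 genes called against TIR1 (28% of all tested genes, 13.4% higher and 14.6% lower). Lefty1 was higher by log2 0.85 (edgeR adjusted p = 0.000911) and Smad7 by 0.25 (0.00782), while Nodal stood at -0.30 (0.0133) and Fst at -0.52 (0.0222). Nodal was lost without untreated TIR1 replicate 1 (0.0684) or WAPL-NIPBL replicate 2 (0.0779), over a range of 5.85e-05 to 0.0779. Fst was lost without TIR1 replicate 1 (0.0690) or 3 (0.0896) or WAPL-NIPBL replicate 3 (0.120), over a range of 0.00791 to 0.120. The count was 2 without TIR1 replicate 1.

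Against untreated PDS5AB cells, untreated PDS5AB-NIPBL cells had 1 gene called (32.7% of all tested genes, 16.2% higher and 16.6% lower), Fst (log2 -0.63, edgeR adjusted p = 0.00218). The count was 2 without untreated PDS5AB replicate 1 or PDS5AB-NIPBL replicate 3.

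A list of 59 other genes of the pathway, written with earlier results of these data known, held 53 that could be tested. In PDS5AB cells 26 of them rose and 4 fell, where 25.8% of all tested genes were called higher and 20.2% lower, with a median log2 change of 0.40 against 0.04 over all tested genes. In WAPL cells 16 rose and 4 fell (17% and 15.8% of all tested genes), with a median of 0.14 against 0.00. In PDS5AB-NIPBL cells 13 rose and 4 fell (11.4% and 8.06%), with medians of 0.13 and 0.00. In WAPL-NIPBL cells 5 rose and 3 fell (5.11% and 3.45%), with medians of 0.02 and 0.01, and in TIR1 cells 8 rose and 5 fell (10.4% and 9.59%), with medians of 0.04 and -0.01. The WAPL-NIPBL total of 8 was 15 with the replicate block, under which 19.7% of all tested genes were called in place of 8.57%. It was 4 without treated replicate 1 or untreated replicate 2 or 3, and 5 without untreated replicate 1 or treated replicate 3. The TIR1 total of 13 was 8 without auxin-treated replicate 1 or 2 and 6 without replicate 3.

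The counts by role that follow are to be read against the shares of all tested genes called higher, 25.8% in PDS5AB, 17% in WAPL, 11.4% in PDS5AB-NIPBL, 5.11% in WAPL-NIPBL and 10.4% in TIR1 cells. Of 5 ligand-processing genes 4 rose in PDS5AB cells, 2 in WAPL and 3 in PDS5AB-NIPBL cells, with 0 lower in these lines. In TIR1 cells 1 rose and 1 fell, and none was called in WAPL-NIPBL cells. Among them Ltbp3, which encodes a binding protein that anchors latent TGF-β, rose in PDS5AB cells from 5.13 to 11.7 CPM (edgeR log2 1.18, SE 0.211, adjusted p = 3.17e-05). Of 7 tested further ligands, 3 rose and 1 fell in PDS5AB cells, 1 and 1 in WAPL, 1 and 0 in PDS5AB-NIPBL, 1 and 1 in WAPL-NIPBL, and 0 and 1 in TIR1 cells. The ligand gene Tgfb2 fell in PDS5AB (log2 -1.10), WAPL (-1.53) and WAPL-NIPBL cells (-0.70). It was not called lower in PDS5AB-NIPBL cells, and any called fall in TIR1 cells was smaller than 0.66 on the log2 scale. The further ligands that rose in PDS5AB cells were Tgfb3 (log2 1.35, from 0.614 to 1.59 CPM), Gdf11 (0.56) and Tgfb1 (0.52), named after their values were seen. Of 8 tested Smads and partners 1 rose in TIR1, PDS5AB, WAPL and PDS5AB-NIPBL cells each, and 1 fell in each of the WAPL and WAPL-NIPBL lines.

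Of 8 tested receptors and co-receptors, 5 rose and 1 fell in TIR1 cells and likewise in PDS5AB cells, against 3 and 1 in PDS5AB-NIPBL and 1 and 0 in each of the WAPL and WAPL-NIPBL lines. The co-receptor gene Tgfbr3 went from 11.4 to 30.8 CPM with auxin in TIR1 cells (edgeR log2 1.44, SE 0.125, adjusted p = 2.32e-09), and the type II receptor gene Tgfbr2 from 2.58 to 6.71 CPM (edgeR log2 1.38, SE 0.196, adjusted p = 8.48e-06). Tgfbr3 also rose in all 4 degron lines, in PDS5AB cells from 30.1 to 49 CPM (edgeR log2 0.71, SE 0.116, adjusted p = 9.81e-06), in WAPL by 0.77, in PDS5AB-NIPBL by 0.85 and in WAPL-NIPBL cells by 0.71. In TIR1 cells Ltbp1, which like Ltbp3 anchors latent TGF-β, fell by 0.81 and Chrd, a BMP antagonist, by 0.66 on the log2 scale.

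Of 10 target genes outside the 9, 6 rose and 1 fell in PDS5AB cells, 5 and 1 in WAPL, 3 and 1 in PDS5AB-NIPBL, 2 and 0 in WAPL-NIPBL, and 1 and 0 in TIR1 cells. In the same order their median log2 changes were 0.964, 0.528, 0.505, 0.297 and -0.076. The genes named next are among the few that fell. Gsc, a homeobox gene of the organizer, fell in WAPL cells from 5.54 to 2.51 CPM (edgeR log2 -1.14, SE 0.189, adjusted p = 1.88e-05). Eomes, a T-box gene of mesoderm and endoderm, fell in PDS5AB-NIPBL cells from 21 to 12 CPM (edgeR log2 -0.80, SE 0.163, adjusted p = 0.000538) and in PDS5AB cells from 20.5 to 13.3 CPM (edgeR log2 -0.62, SE 0.159, adjusted p = 0.00177).

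Of 15 negative regulators, 7 rose and 1 fell in PDS5AB cells, 6 and 1 in WAPL, 2 and 2 in PDS5AB-NIPBL, 1 and 1 in WAPL-NIPBL, and 0 and 2 in TIR1 cells. Of all tested genes, 46% were called in either direction in PDS5AB, 32.8% in WAPL, 19.5% in PDS5AB-NIPBL, 8.57% in WAPL-NIPBL and 19.9% in TIR1 cells. On the log2 scale Tgif1, which encodes a Smad2 and Smad3 corepressor, fell in all 4 degron lines, by 0.80 in PDS5AB and PDS5AB-NIPBL, by 0.63 in WAPL and by 0.53 in WAPL-NIPBL cells, with the largest edgeR adjusted p at 8.62e-06. The largest called falls in TIR1 cells were those of Ltbp1 and Chrd, so any called fall of Tgif1 there was smaller than 0.66. Differences from the TIR1 change were not tested for the pathway list.

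**Figure D4:**
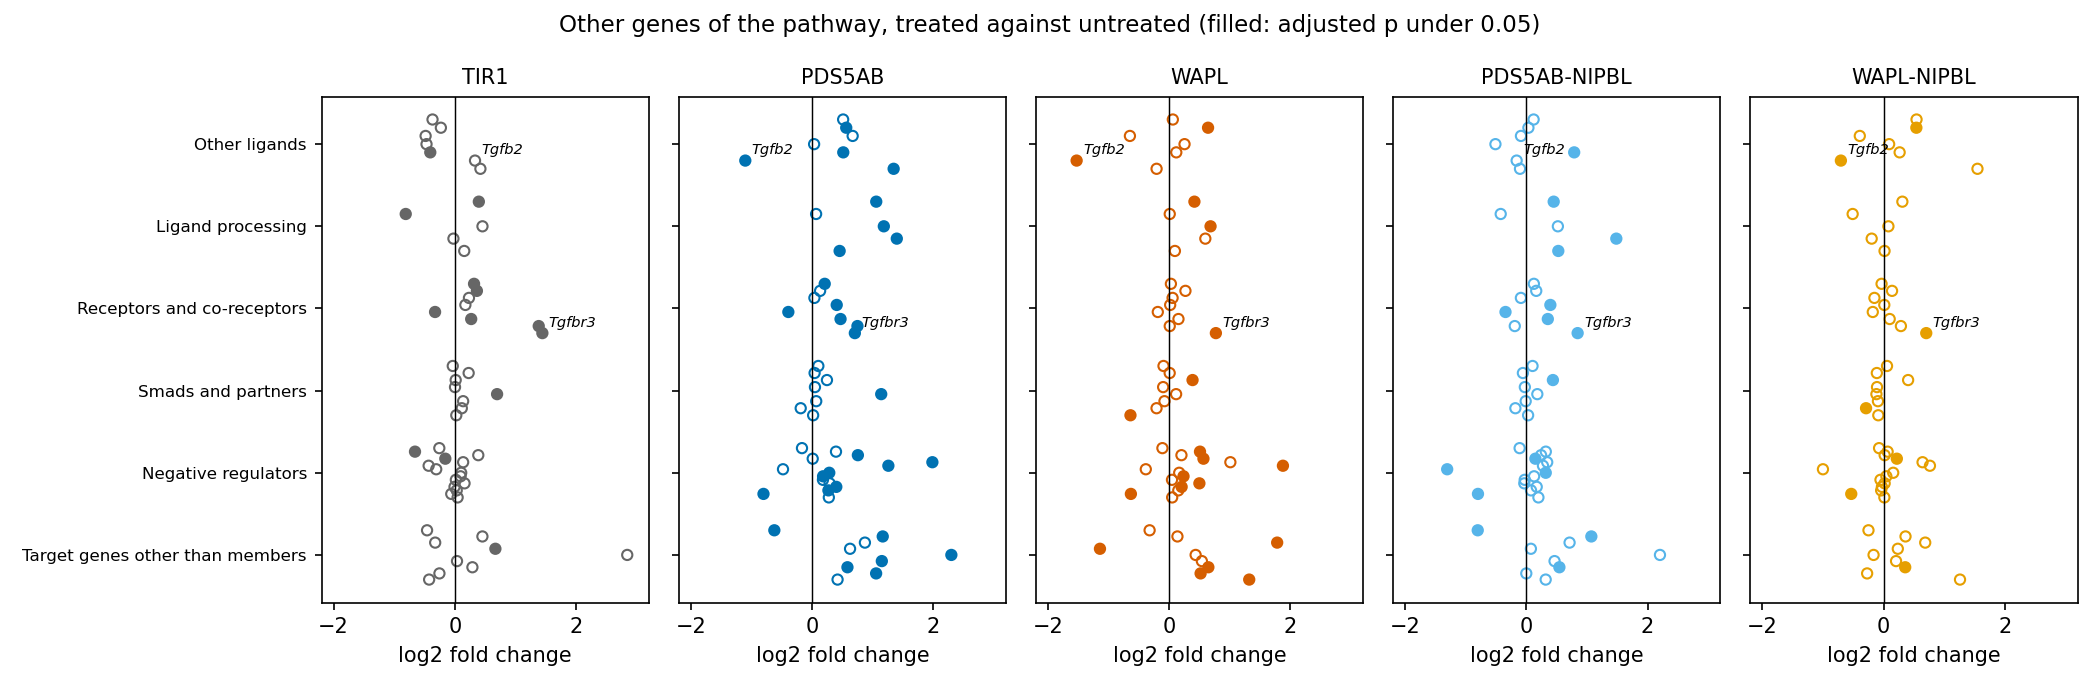
Log2 change on treatment of 52 of the 53 tested pathway genes outside the 9, by role and line; filled points have an edgeR adjusted p under 0.05. Tgfbr3 lies at 1.44 in TIR1 cells, and Tgfb2 lies at -1.53 in WAPL cells.

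Markers of cell types moved with treatment in the same libraries. The lists share genes with the pathway list: Tdgf1 among the pluripotency markers, Sox17 among those of primitive endoderm, and Eomes, Mixl1, Gsc and Foxa2 among those of mesendoderm. The summed level of 8 pluripotency markers was 3693 to 4150 CPM in treated PDS5AB cells (8 of 8 fell), 4726 to 4901 in WAPL (6 fell), 5278 to 5503 in PDS5AB-NIPBL (7 fell), 5128 to 5379 in WAPL-NIPBL (6 fell) and 5827 to 6152 CPM in TIR1 cells (3 fell and 2 rose). The 7 primitive endoderm markers summed to 25.5 to 28.7 CPM in untreated and 60.4 to 74.3 CPM in treated PDS5AB cells (5 rose). They went from 11 to 13.7 up to 38.2 to 53.6 CPM in WAPL (4 rose), from 11.8 to 14 up to 31.8 to 37.4 CPM in PDS5AB-NIPBL (3 rose) and from 7.09 to 7.34 up to 14.8 to 16.2 CPM in WAPL-NIPBL cells (3 rose). In TIR1 cells they ran from 9.33 to 11.1 and from 11.2 to 12.4 CPM (1 rose and 1 fell). The part of these and the following markers in the changes of the pathway genes was not tested, and in bulk RNA fewer cells of a type and less RNA per cell cannot be told apart.

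The 6 mesendoderm markers summed to 55 to 108 CPM in untreated and 57.8 to 149 CPM in treated libraries. In TIR1 cells they summed to 63.3 to 78.2 CPM without and 115 to 131 CPM with auxin, and 2 rose. Most of that sum was Cdx1, named after its values were seen, whose mean was 52.7 CPM without and 104 CPM with auxin. Gsc, the other that rose, went from 6.87 to 10.9 CPM, Eomes stood at 8.88 and 6.48 CPM, and Mixl1, Foxa2 and Mesp1 had means of 1.13 CPM or less. The other lists were low but moved with treatment as well, and 3 genes of each could be tested. The 5 neural progenitor markers summed to 8.15 to 9.31 CPM in untreated and 4.14 to 5.17 CPM in treated WAPL cells (1 rose and 1 fell). Their sums went from 4.96 to 6.49 down to 2.37 to 3.46 CPM for PDS5AB-NIPBL and from 4.96 to 5.50 down to 3.15 to 3.2 CPM for WAPL-NIPBL cells, with 1 lower in each. The sums were 7.64 to 9.51 and 5.68 to 7.53 CPM for PDS5AB (1 rose and 1 fell), and 6.03 to 9.11 and 5.10 to 5.86 CPM for TIR1 cells (1 fell).

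The 7 fibroblast markers summed to 13.5 to 14.1 CPM in untreated and 4.38 to 5.37 CPM in treated WAPL cells, where all 3 tested fell. Sums of 16.9 to 19.1 CPM stood against 19.5 to 21.9 CPM for PDS5AB (2 rose), and 10.3 to 12.4 against 7.52 to 8.18 CPM for WAPL-NIPBL cells (1 fell). PDS5AB-NIPBL cells had 8.18 to 11.1 and 9.75 to 10.7 CPM (1 rose and 1 fell), and TIR1 cells 14.1 to 17.6 and 10.3 to 13.3 CPM (1 fell). Dcn was at 0 in 6 of the 10 groups.

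Across the 10 group means of log2 CPM, which share lines and libraries, Inhbb ran with Fst (r = 0.82) and against Lefty1 (r = -0.72), and Lefty1 ran against Fst (r = -0.76). Lefty1 and Lefty2 had r = 0.54, and Nodal and Lefty2 r = -0.55. Among 12940 genes averaging 50 counts or more, those whose 10 group means were most like Inhbb were Eipr1, Dcaf13 and Cfap298 (r = 0.97, 0.97 and 0.96). Onecut2, Lactb and Dusp3 were most like Nodal (0.99, 0.98 and 0.96), and Tnfsf9, Inava and Coq9 most like Lefty1 (0.96, 0.94 and 0.94). These are descriptions over 10 points, picked as the highest of many.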

How the data were processed

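The authors deposited raw fragment counts per gene, made with featureCounts 2.0.1 in paired-end mode on GENCODE vM23 gene models (GRCm38), per the file headers. The recorded command sets no strand option and none for multi-mapping or multi-gene fragments. The submitters' processing notes name cutadapt, STAR 2.7.7a and deepTools. The labels' protocols describe stranded polyA libraries, although GEO's molecule field reads genomic DNA. Of 55421 gene IDs, 55154 matched a symbol.

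All 30 libraries (19632704 to 45539021 fragments) entered edgeR 4.0.16 in R 4.3.3 with 10 group means, filterByExpr (minimum count 10, 19868 genes kept), TMM factors of 0.95 to 1.13 and quasi-likelihood F-tests with Benjamini-Hochberg adjustment over all tested genes, on 20 residual degrees of freedom. Calls are at an adjusted p under 0.05, and "rose" and "fell" mean called. SEs derive from the F statistic. CPM is TMM-scaled, FPKM divides it by exon length, and correlations used log2 CPM with a prior count of 2. The fit was tested on simulated data.

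Alternatives were RLE factors, DESeq2 1.42.0, no low-count filter, the compared groups alone, a replicate block and leaving out each library. Without the filter 40589 genes entered the fit, and edgeR adjusted p could fall far below the main fit. For Lefty2 in PDS5AB cells it was 0.000221 against 0.168. Low ends of ranges are not read as stronger evidence than the main fit. Same-numbered libraries of a degron line deviated together (r from 0.109 to 0.333 in all 12 pairs; TIR1 -0.010 to 0.057), so the numbers were taken to pair them, a reading of the data and not of the labels. The 9 genes and all lists were chosen with earlier results of these data known. Inhbb was chosen by its treatment changes, so it has no test and counts of called genes leave it out, although the planned count was of all 9. Named pathway genes are the 2 largest called changes per direction and line with a mean of at least 50 counts; 1 gene of the list enters the counts but is not reported here. Lefty coding sequences come from GENCODE vM21, whose gene positions match the deposited table, and were aligned with Biopython 1.88.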

Additional observations from a re-analysis of the deposited data

Results flagged for a closer look

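Treatment changes that differed between lines, by an interaction contrast in edgeR with adjustment over all tested genes, are given here as log2 differences. Each comparison with TIR1 crosses runs of library numbers.

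Against TIR1 the Lefty1 change was higher in every degron line, by 2.39 for PDS5AB, 3.63 for WAPL, 2.18 for PDS5AB-NIPBL and 1.95 for WAPL-NIPBL. The Lefty2 change was higher in the same lines, by 1.43, 1.22, 1.18 and 1.22. The last 2 of these calls (edgeR adjusted p = 0.0142 and 0.014) were lost without auxin-treated TIR1 replicate 2 (0.0520 and 0.0525) or treated replicate 2 of the line itself (0.0550 and 0.0635). The lowest values over all alternatives, 3.74e-19 and 6.12e-21, lay far below the main fit and are not read as stronger evidence. For both Lefty genes the difference holds the fall in auxin-treated TIR1 cells as well as the change in the degron line.

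The Fst change was lower than that of TIR1 in the same lines, with differences of -1.98, -2.38, -1.89 and -0.82. The last call (adjusted p = 0.0314) was lost in 7 of 16 alternatives: without untreated TIR1 replicate 2 (0.0879), auxin-treated TIR1 replicate 2 or 3 (0.0849 and 0.0787), untreated WAPL-NIPBL replicate 1 or 2 (0.0740 and 0.0837) or treated WAPL-NIPBL replicate 2 or 3 (0.0817 and 0.0661), over a range of 0.00487 to 0.0879.

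Nodal changed more than in TIR1 in PDS5AB (0.56) and PDS5AB-NIPBL cells (0.43). The latter (adjusted p = 0.0263) was lost in 8 of 16 alternatives: without untreated TIR1 replicate 1 or 2 (0.0795 and 0.0521), auxin-treated TIR1 replicate 1, 2 or 3 (0.0525, 0.0678 and 0.0615), treated PDS5AB-NIPBL replicate 1 or 3 (0.0751 and 0.0619) or untreated PDS5AB-NIPBL replicate 2 (0.124), over a range of 0.0119 to 0.124. The Gdf3 change in PDS5AB cells lay below that of TIR1 (-0.46) and below that of PDS5AB-NIPBL cells, from which it differed by 0.73 (PDS5AB-NIPBL minus PDS5AB). Within 1 run of library numbers, the WAPL-NIPBL change minus the WAPL change was -1.69 for Lefty1 and 1.56 for Fst, and both kept their call in all 17 alternatives. For both genes the untreated levels of these lines differed as well, so the difference also holds that between untreated cells.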

How the results depend on the processing

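Over the single-gene results and their alternatives, 759 values kept their direction and, where tested, their side of the threshold, 16 passed it newly, 46 lost it and 23 changed sign. The change of Inhbb, which has no test, moved by more than the spread between libraries in PDS5AB-NIPBL cells without untreated replicate 3 (log2 -1.51) or treated replicate 3 (-2.52). All sign changes were of treatment changes that were not called. On treatment, Smad7 in PDS5AB cells was -0.004 with all genes kept and -0.02 in a fit of only the 2 groups, Gdf3 in PDS5AB-NIPBL cells 0 with all genes kept, and Smad7 in WAPL-NIPBL cells 0.005 in a fit of only the 2 groups. Leaving out 1 library moved Smad7 from -0.071 to 0.088 in PDS5AB and from -0.008 to 0.020 in WAPL-NIPBL cells, Gdf3 from -0.090 to 0.114 in PDS5AB-NIPBL and from -0.023 to 0.140 in WAPL cells, Nodal from -0.044 to 0.020 in WAPL-NIPBL cells, and Lefty2 from -0.154 to 0.388 in WAPL, -0.043 to 0.329 in PDS5AB-NIPBL and -0.082 to 0.352 in WAPL-NIPBL cells.

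Counts leave out Inhbb. The count called on treatment was 4 instead of 2 in TIR1 cells (all genes kept, only the compared groups, DESeq2) and 1 instead of 0 in WAPL-NIPBL cells (all genes kept, only the compared groups, replicate block). Untreated WAPL against TIR1 and untreated PDS5AB-NIPBL against PDS5AB each had 2 instead of 1 (all genes kept, only the compared groups). With the replicate block, pairing same-numbered libraries within runs of library numbers, the pathway list in WAPL-NIPBL cells had 15 instead of 8 called, with 19.7% of all tested genes called in place of 8.57%. The block also gave 4 instead of 1 for untreated WAPL against TIR1, where it called 28% of all tested genes in place of 14%, and 3 instead of 1 for untreated PDS5AB-NIPBL against PDS5AB, with 45.1% in place of 32.7%. For untreated cells against TIR1 it gave 4 instead of 3 in PDS5AB-NIPBL and 5 instead of 4 in WAPL-NIPBL cells. There it called 9087 and 8115 of all tested genes, in place of 6809 and 5572. The block pairs no libraries across any of these comparisons of untreated cells, so calls gained there are not given. Low ends of ranges given there for Gdf3 (0.000156), Nodal (5.85e-05) and Fst (0.00791) are edgeR adjusted p with the block. Among treatment changes the block changed no call other than those given with the results, and contrasts with auxin-treated TIR1 were not fitted with it. Leaving out 1 library gave 1 to 3 (of 3) on treatment in PDS5AB-NIPBL cells, 6 to 13 (of 13) for the pathway list in TIR1 and 4 to 6 (of 8) in WAPL-NIPBL cells. For untreated cells it gave 2 to 3 (of 4) in PDS5AB, 1 to 4 (of 3) in PDS5AB-NIPBL and 2 to 4 (of 4) in WAPL-NIPBL against TIR1, and 1 to 2 (of 1) in PDS5AB-NIPBL against PDS5AB. For differences from TIR1 it gave 2 to 4 (of 4) in PDS5AB-NIPBL and 1 to 3 (of 3) in WAPL-NIPBL cells. The cause was not tested. Inhba and Cer1, with 3 fragments or fewer in every library, did not pass the filter on low counts, and neither was called on treatment with all genes kept.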
